A study of Mus musculus with 25 samples.

Results

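The mir-99/100 and mir-125 families are 6 microRNA hairpins, listed as mmu-mir-99a, mmu-mir-99b, mmu-mir-100, mmu-mir-125a, mmu-mir-125b-1 and mmu-mir-125b-2 and named below without the mouse prefix, which were taken by name from a table of 1193 hairpins counted in mouse blood. All 6 were in the table, and all 6 passed a filter on low counts that removed 855 of the 1193. The blood came from male C57BL/6 mice, an inbred laboratory strain with no treatment or engineered allele named. They were 2, 9, 15, 24 or 30 months old, with n = 5 libraries per age and 25 in all, and the labels number the animals separately, so p-values measure the spread between these animals. Small RNA was sequenced from total RNA of blood, and reads were counted per hairpin.

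A microRNA is a short RNA that is cut from a hairpin precursor and guides the silencing of messenger RNAs, chiefly through its seed, bases 2 to 8 from its 5′ end. In mammals the mir-99/100 and mir-125 hairpins sit in 3 related clusters, each made of a mir-99 or mir-100 hairpin, a let-7 hairpin and a mir-125 hairpin. Members of the miR-99/100 family are known to target the mTOR kinase, a growth regulator. miR-125 microRNAs are known from blood stem cells, where raised miR-125b or miR-125a in mice expands blood cell production, and miR-125a is also known from macrophages and regulatory T cells.

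The mature 5′-arm sequences show which hairpins share a seed and how few bases separate some of them. They are given 5′ to 3′ as in RefSeq on GRCm38.p6, with the seed in capitals, and all 6 hairpins matched an entry. miR-351-5p and miR-10a-5p are shown because the first has the miR-125 seed and the second is the relative of miR-99 and miR-100 that is abundant in these libraries.
miR-99a-5p: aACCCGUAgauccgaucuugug
miR-99b-5p: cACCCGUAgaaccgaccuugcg
miR-100-5p: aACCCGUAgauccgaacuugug
miR-125a-5p: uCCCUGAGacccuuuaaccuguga
miR-125b-5p: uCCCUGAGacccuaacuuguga
miR-351-5p: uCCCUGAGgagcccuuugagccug
miR-10a-5p: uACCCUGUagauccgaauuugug

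Of 1679 mature mouse names in the RefSeq table, the seed ACCCGUA was held by miR-99a-5p, miR-99b-5p and miR-100-5p. The seed CCCUGAG was held by 5 names, miR-125a-5p, miR-125b-5p, miR-351-5p, miR-6367 and miR-6394. With positions counted from the 5′ end, miR-100-5p and miR-99a-5p differ by 1 base, A16U, while miR-99b-5p differs from miR-100-5p at 4 positions (A1C, U11A, A16C and U21C). miR-125b-5p is the same in both of its hairpins, which differ in the 3′ arm, shown with bases 2 to 8 in capitals.
miR-125b-1-3p: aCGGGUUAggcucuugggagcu
miR-125b-2-3p: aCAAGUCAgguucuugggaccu
The table did not separate the arms, and the sources used here do not say how reads that fit both mir-125b hairpins were assigned. mir-125b-2 had more counts than mir-125b-1 in 25 of 25 libraries, at 1.13 to 1.75 times the count, so the values of both are uncertain as to hairpin.

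The hairpins lie in 3 clusters, with positions from RefSeq on GRCm38.p6 that were the same in GENCODE vM21. On chromosome 17, mir-99b (chr17:17830188-17830257), let-7e (chr17:17830352-17830444) and mir-125a (chr17:17830812-17830879) span 692 bases on the plus strand. The first 2 lie in an intron and mir-125a overlaps an exon of Spaca6, which encodes a sperm membrane protein needed for fertilisation. On chromosome 9, mir-100 (chr9:41531425-41531504), let-7a-2 (chr9:41536716-41536811) and mir-125b-1 (chr9:41581926-41582002) span 50578 bases within introns of the noncoding gene 3110039I08Rik. mir-100 also lies opposite an exon of the long noncoding RNA Gm48742, and mir-125b-1 overlaps the sense intronic transcript Gm28119; the use of strand in the counting is not known. On chromosome 16, mir-99a (chr16:77598936-77599000), let-7c-1 (chr16:77599657-77599750) and mir-125b-2 (chr16:77646273-77646343) span 47408 bases within introns of the noncoding host gene Mir99ahg. mir-125b-2 also overlaps an exon of the transcript C130023A14Rik, and mir-99a lies opposite an intron of the predicted gene Gm11146.

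Library totals ran from 4.884 to 24.25 M (mega) counts with a median of 15.39 M. Depth differed with age: the 30-month libraries had 5.747 to 13.07 M counts, each fewer than any 2-month library, at 16.21 to 22.25 M. The 2 smallest libraries were 24 months replicate 4, at 4.884 M, and 30 months replicate 3, at 5.747 M. Both were the lowest of their age in all 6 hairpins, as was 2 months replicate 3, which had 17.06 M counts. 2 months replicate 2 and 15 months replicate 5 were the highest of their age in all 6. The part of depth in the levels of single libraries, and in the differences between 2 and 30 months, was not tested. As 1 alternative, called thinned libraries below, counts were drawn once at random for every library, in its own proportions, to the smallest total. The draw adds counting noise of its own and was not repeated. In it the log2 change at 30 against 2 months, given in full below, was 1.02 for mir-99b (edgeR adjusted p = 0.0175) and 0.77 for mir-125a (edgeR adjusted p = 0.0443). Levels below are counts per 1000000 (CPM) of library sizes scaled by the trimmed mean of M-values (TMM), and a floor of 3 counts is 0.614 CPM in the smallest library.

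The families were a small part of the counted microRNA. mir-125a averaged 51.9 ± 16.8 CPM and mir-99b 50.6 ± 19.6 CPM over the 25 libraries (SD), ranks 109 and 110 among the hairpins tested. They were followed by mir-99a at 16.6 ± 5.95 CPM, mir-125b-2 at 9.22 ± 2.997 CPM, mir-125b-1 at 6.66 ± 2.06 CPM and mir-100 at 1.03 ± 0.753 CPM. The mature forms have 22 to 24 bases, so the levels compare reads of near-equal length. mir-125a and mir-99b did not separate, with mir-125a higher in 16 of 25 libraries. Below them the order held in 25 of 25 libraries at every step, with mir-99b at 2.08 to 5.27 times mir-99a and mir-99a at 1.29 to 2.74 times mir-125b-2. mir-100 had 2 to 47 counts per library, and 24 months replicate 4 and 30 months replicate 3, with 2 counts each, lay under the floor of 3 counts.

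mir-99b had 35.9, 42.9, 26.3, 32.1 and 30.3 CPM in the 2-month libraries. It had 34.2, 37.5, 50.9, 43.1 and 51.7 CPM at 9 months and 35.0, 39.7, 38.7, 42.1 and 82.9 CPM at 15 months. At 24 months it had 89.4, 71.3, 62.7, 35.4 and 60.1 CPM, and at 30 months 77.6, 68.4, 24.5, 72.9 and 79.8 CPM. In each of the 2 oldest groups 4 of 5 libraries lay above every 2-month library, and the remaining one was the smallest library of its age. At 30 months that library, replicate 3, was also below every 2-month library, so the groups overlapped.

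mir-125a, its neighbour of the other seed, had 44.0, 51.9, 27.0, 33.1 and 32.8 CPM at 2 months. It had 50.1, 40.8, 54.2, 44.8 and 43.3 CPM at 9 months and 38.7, 50.4, 33.1, 49.3 and 77.2 CPM at 15 months. The 24-month libraries had 78.7, 64.5, 70.6, 38.0 and 56.2 CPM and the 30-month libraries 71.1, 61.1, 28.5, 80.3 and 78.6 CPM. Again 4 of 5 libraries of 24 and of 30 months lay above all of 2 months, and the same library stood low in each.

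**Figure D1:**
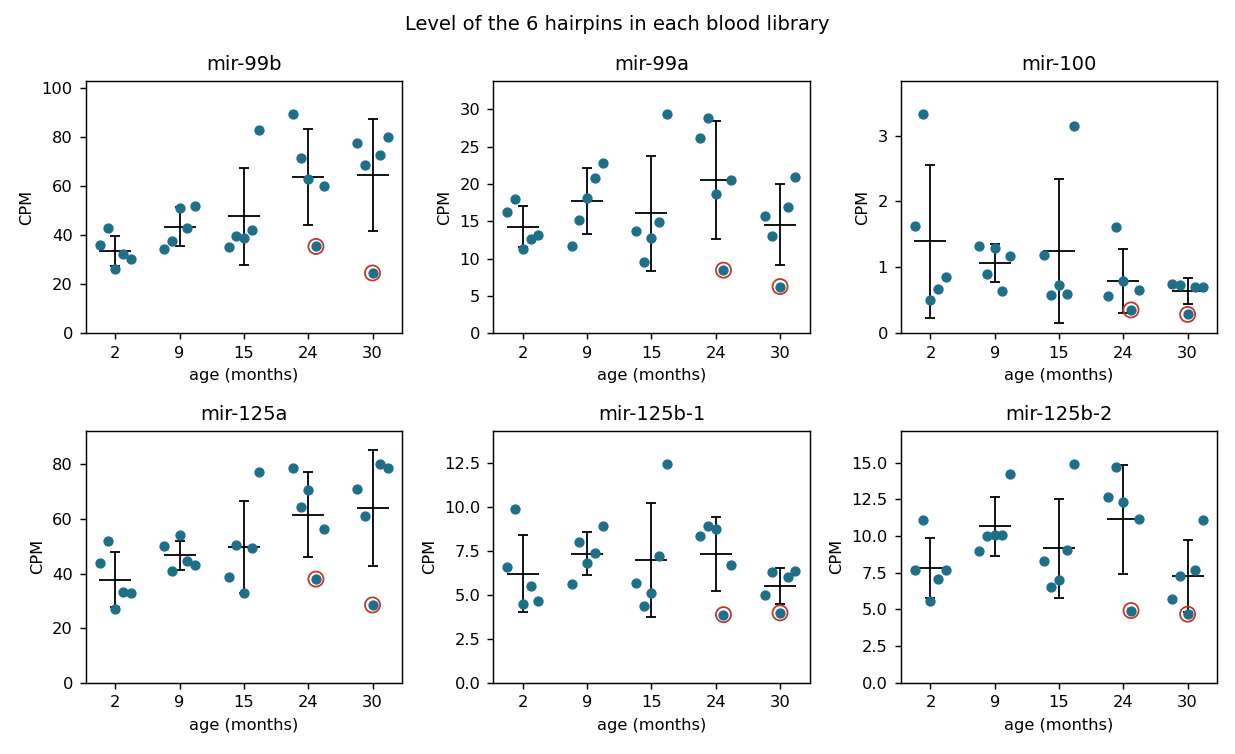
CPM of each hairpin (vertical axes, from 0) in the 5 libraries of each age in months (horizontal axes), with dots in replicate order, a bar at the mean and whiskers of 1 SD; red rings mark the smallest libraries of the series, 24 months replicate 4 and 30 months replicate 3. In mir-99b and mir-125a the unringed dots of 24 and 30 months stand above all dots of 2 months, as do those of mir-99a and mir-125b-2 at 24 months, while at 30 months mir-99a, mir-100 and both mir-125b hairpins show no such separation.

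At 30 against 2 months, the widest interval, mir-99b and mir-125a were higher and the other 4 hairpins did not pass the test. mir-99b averaged 64.6 ± 22.9 CPM at 30 months, against 33.5 ± 6.32 CPM at 2 months (mean ± SD, n = 5 per age), a log2 change of 0.95 (SE 0.28, edgeR quasi-likelihood adjusted p = 0.0251). mir-125a averaged 63.9 ± 21.2 CPM at 30 months, against 37.8 ± 10.04 CPM at 2 months, a log2 change of 0.76 (SE 0.25, edgeR adjusted p = 0.0426). Of all hairpins tested 48, or 14.2%, passed in this comparison, 31 of them higher (9.17%) and 17 lower (5.03%), against 2 of 6 members, both higher. The median log2 change was −0.03 over the 6 members and −0.04 over all hairpins tested. None of the 6 members had groups without overlap, against 5.62% of all hairpins higher and 5.03% lower.

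Both calls ended under some settings. Without the filter on low counts neither passed (edgeR adjusted p = 0.0607 for mir-99b and 0.0760 for mir-125a). mir-125a alone also missed the threshold with upper quartile factors (adjusted p = 0.0725), limma-voom (adjusted p = 0.0671), summed mir-125b copies (adjusted p = 0.0744) and the 10 compared libraries alone (adjusted p = 0.0853). With the sequencing lane of the column names as a term, the log2 change was 0.73 for mir-99b (edgeR adjusted p = 0.0789) and 0.59 for mir-125a (edgeR adjusted p = 0.131). Within lanes 5, 6 and 7 the 4 libraries of 30 months had 68.4 to 79.8 CPM of mir-99b, and each exceeded the 2-month library of its lane, at 42.9, 26.3 and 32.1 CPM. In lane 8 the order was the other way, with 24.5 CPM in 30 months replicate 3 and 30.3 CPM at 2 months. Without 2 months replicate 3, the lowest of its age, neither hairpin passed (edgeR adjusted p = 0.0562 for mir-99b and 0.0965 for mir-125a). mir-125a also missed the threshold when 2 months replicate 4 (edgeR adjusted p = 0.0851) or replicate 5 (0.0744) was left out. The same held for 30 months replicates 1, 2, 4 and 5, each left out alone (edgeR adjusted p = 0.0663, 0.0556, 0.0998 and 0.0825). Without 30 months replicate 3 the log2 changes were 1.20 for mir-99b (edgeR adjusted p = 0.00140) and 0.99 for mir-125a (adjusted p = 0.00595).

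The other members of the miR-99/100 seed, mir-99a and mir-100, gave no call at 30 months. mir-99a averaged 14.6 ± 5.46 CPM at 30 months, against 14.3 ± 2.73 CPM at 2 months (mean ± SD, n = 5 per age), a log2 change of 0.03 (SE 0.31, edgeR adjusted p = 0.969). mir-100 averaged 0.634 ± 0.197 CPM at 30 months, against 1.40 ± 1.16 CPM at 2 months, and its log2 change of −1.05 (SE 0.54, edgeR adjusted p = 0.221) rests on 2 to 10 counts per library at 30 months. The 2 hairpins of miR-125b lay on the other side of 0 from mir-125a, at −0.16 (SE 0.27, edgeR adjusted p = 0.746) for mir-125b-1 and −0.10 (SE 0.27, edgeR adjusted p = 0.862) for mir-125b-2. With library totals in place of TMM these were 0.08 and 0.14.

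At 24 against 2 months, mir-99b averaged 63.8 ± 19.6 CPM at 24 months, against 33.5 ± 6.32 CPM at 2 months (mean ± SD, n = 5 per age), a log2 change of 0.93 (SE 0.28, edgeR adjusted p = 0.0292). It was the single call among the 6 members, against 41 or 12.1% of all hairpins, with 7.69% higher. mir-125a had a log2 change of 0.71 (SE 0.25, edgeR adjusted p = 0.0664) and the miR-125b hairpins 0.26 for mir-125b-1 (SE 0.26) and 0.53 for mir-125b-2 (SE 0.26). mir-99a had 0.53 (SE 0.31) and mir-100 −0.71 (SE 0.49). mir-99a and mir-125b-2, like mir-99b and mir-125a, had 4 of 5 libraries of 24 months above all of 2 months, and 24 months replicate 4 was below all of 2 months in both. The call of mir-99b ended when any of 2 months replicates 3, 4 and 5 and 24 months replicates 1 and 5 was left out (edgeR adjusted p = 0.0772, 0.0600, 0.0656, 0.0845 and 0.0512). That of mir-125a appeared when 2 months replicate 2 or 24 months replicate 4 was dropped (edgeR adjusted p = 0.0281 and 0.0457). With library totals 4 members passed, the added ones being mir-99a, mir-125a and mir-125b-2.

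As a linear trend over the 5 ages, mir-99b rose by 0.35 log2 units per 10 months (SE 0.08, edgeR adjusted p = 0.00457) and mir-125a by 0.27 (SE 0.08, edgeR adjusted p = 0.0127). The mean of mir-99b was 33.5, 43.5, 47.7, 63.8 and 64.6 CPM from 2 to 30 months, and that of mir-125a 37.8, 46.6, 49.7, 61.6 and 63.9 CPM. The other members did not pass, with slopes of 0.06 for mir-99a (SE 0.10), −0.33 for mir-100 (SE 0.16), −0.03 for mir-125b-1 (SE 0.09) and 0.0024 for mir-125b-2 (SE 0.09). Over all hairpins 67 or 19.8% passed, with 10.7% rising. Neither call of the trend ended when any of the 25 libraries was left out. Without the 2-month group the slopes were 0.33 for mir-99b and 0.26 for mir-125a, but neither passed (edgeR adjusted p = 0.148 and 0.201).

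None of the 6 members passed in the other comparisons by edgeR. At 9 against 2 months and 15 against 2 months 2.07% and 1.48% of all hairpins passed, and 0 members had an unadjusted p under 0.05. Between consecutive ages 0% passed at 15 against 9 months, 2.07% at 24 against 15 months and 0% at 30 against 24 months. Among the members mir-125b-2 at 30 against 24 months was the single one with an unadjusted p under 0.05 in these consecutive comparisons (edgeR adjusted p = 0.885). No member passed in any of these 5 comparisons under the alternatives run, DESeq2 and limma-voom included. In the test of any difference among the 5 ages 7.99% of all hairpins passed, and mir-99b had an adjusted p = 0.0941 and mir-125a an adjusted p = 0.197. In that test 2 members had an unadjusted p under 0.05. Without 30 months replicate 3 both passed it (edgeR adjusted p = 0.00680 for mir-99b and 0.0356 for mir-125a), without 15 months replicate 5 mir-99b alone (adjusted p = 0.0261), and by DESeq2 mir-99b alone (adjusted p = 0.0380). In 15 months replicate 5, mir-99b had 82.9 CPM, and its next highest value of that age was 42.1 CPM.

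**Figure D2:**
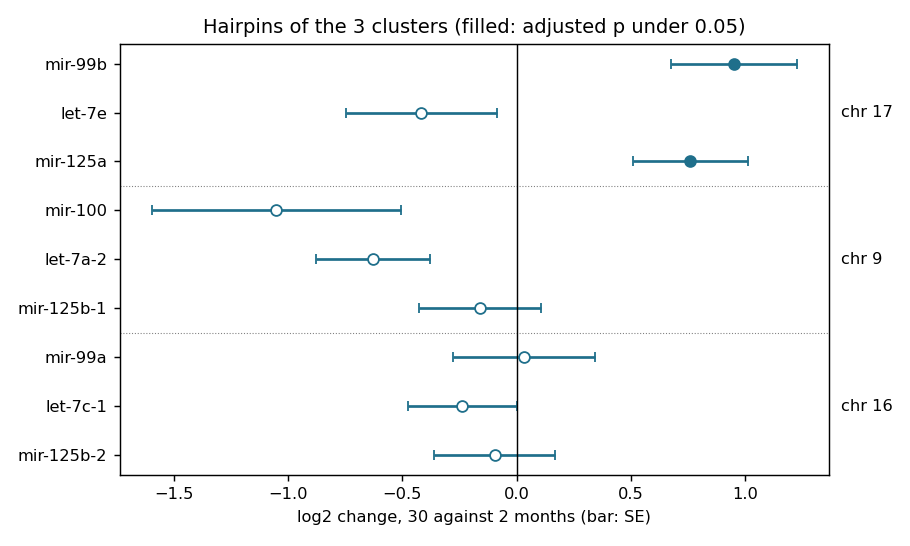
Log2 change at 30 against 2 months (horizontal axis) with 1 SE for the 9 hairpins of the 3 clusters, in genome order within chromosomes 17, 9 and 16. mir-99b at 0.95 and mir-125a at 0.76 are filled, for an edgeR adjusted p under 0.05, and the 3 let-7 hairpins lie below 0.

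Since a ratio of 2 hairpins in the same library hardly depends on how libraries are scaled, beyond the 0.5 CPM added to each value, ratios were compared between 30 and 2 months with exact two-sided permutation tests, adjusted over 10 ratios. The smallest p that 5 against 5 libraries allow is 0.00794. mir-125a over mir-125b-2 had log2 ratios of 3.53, 2.99, 2.49, 3.30 and 2.77 at 30 months, against 2.45, 2.17, 2.17, 2.15 and 2.02 at 2 months. All 5 old libraries lay above all 5 young ones, including 30 months replicate 3, and the difference was 0.82 (exact p = 0.00794, adjusted p = 0.0265). mir-99b over mir-100 differed by 1.42 with the same exact p = 0.00794 and adjusted p = 0.0265, also with 5 of 5 libraries above. However, mir-100 is near the floor, at 0.284 to 0.752 CPM at 30 months. The size of this ratio therefore depends on the 0.5 CPM added and on the scaling.

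mir-99b over mir-99a was added after the values were seen, as mir-99a is the better measured paralog. The ratio was thus picked from these same values, so its p-values are no test of it and are not given. The adjustment over 10 ratios includes it. Over the 9 planned ratios alone the adjusted p of the 2 that separated would be higher. The log2 ratios of mir-99b over mir-99a were 2.27, 2.35, 1.89, 2.08 and 1.91 at 30 months and 1.12, 1.24, 1.18, 1.31 and 1.17 at 2 months, a difference of 0.90. By age the mean ratio was 1.20, 1.29, 1.57, 1.66 and 2.10 from 2 to 30 months. Of the 9 ratios planned, 2 separated the ages, where 11.6% of all pairs of tested hairpins did, and nothing is read from this count for the added ratio. The hairpins of the 9 were also chosen with earlier results of these data known, so their p-values are not those of a blind choice. With 1 of the 10 libraries left out, 4 against 5 libraries allow no p below 0.0159, which is 0.0529 when 3 of 10 ratios reach it, so most of these calls end by construction. The difference of mir-99b over mir-99a then ran from 0.83 to 0.95 and that of mir-125a over mir-125b-2 from 0.69 to 0.95. Without 30 months replicate 3, 5 of the ratios passed, and with 5 CPM added in place of 0.5 none of the 10 did, with differences of 0.80 for mir-99b over mir-99a and 0.71 for mir-125a over mir-125b-2.

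**Figure D3:**
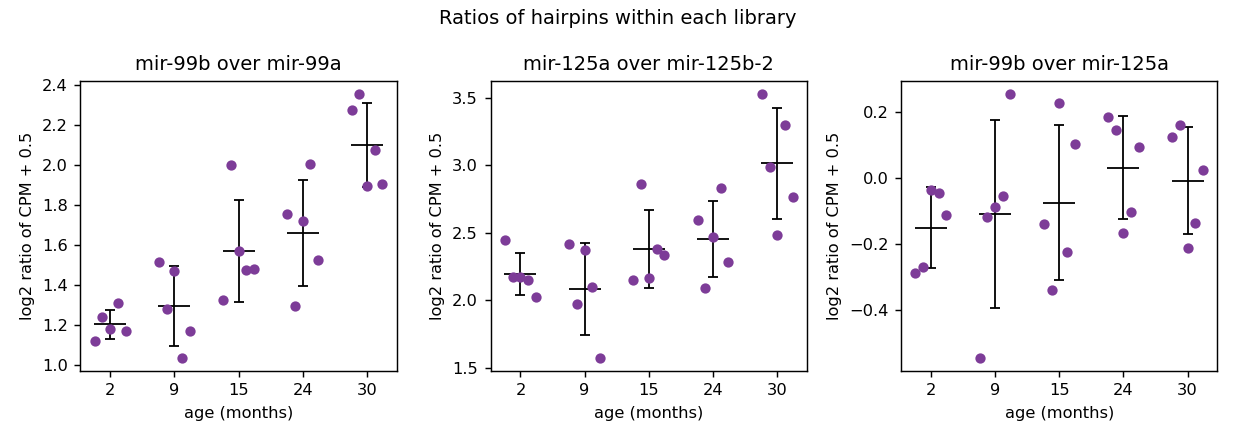
Log2 ratio of CPM + 0.5 of 2 hairpins in the same library (vertical axes) by age in months (horizontal axes), with dots in replicate order, a bar at the mean and whiskers of 1 SD. For mir-99b over mir-99a and mir-125a over mir-125b-2 all 5 dots of 30 months stand above all 5 of 2 months, while mir-99b over mir-125a has means of −0.01 at 30 months and −0.15 at 2 months.

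As shares of each family by name, mir-99b made up 68.3%, 70.02%, 73.8%, 75.5% and 80.8% of the summed CPM of mir-99a, mir-99b and mir-100 from 2 to 30 months. Single libraries ran from 78.7% to 83.3% at 30 months and from 66.7% to 70.7% at 2 months. mir-125a made up 72.95%, 72.1%, 75.6%, 77.3% and 82.6% of the summed CPM of the mir-125 hairpins, with 76.7% to 86.9% at 30 months and 71.2% to 75.6% at 2 months. With mir-351, which has the same seed, added to the sum, the share of mir-125a was 40.8%, 39.5%, 45.6%, 40.65% and 44.7%. Single libraries then ran from 30.8% to 54.0% at 30 months and from 36.3% to 43.5% at 2 months, so these ages overlapped. If reads of miR-125b were counted for both of its hairpins, the shares of mir-125a are understated. The shares without mir-351 restate the ratios above and were not tested apart from them, and the share with mir-351 was not tested.

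mir-99b and mir-125a were at similar levels at both ages, with a mean log2 ratio of −0.01 ± 0.16 at 30 months, against −0.15 ± 0.12 at 2 months (mean ± SD, n = 5 per age) and a difference of 0.14 (exact p = 0.167, adjusted p = 0.238). let-7e, which lies between them, had 1.55 ± 0.593 CPM at 30 months, against 2.10 ± 0.613 CPM at 2 months, a log2 change of −0.42 (SE 0.33, edgeR adjusted p = 0.453). mir-99b had 11.8 to 104 times its counts. The ratio of mir-99b over let-7e differed by 1.21 on the log2 scale (exact p = 0.0238, adjusted p = 0.0595) and that of mir-125a over let-7e by 1.06 (exact p = 0.0317, adjusted p = 0.0635). Each was above all 2-month libraries in 4 of 5 libraries of 30 months, and neither passed after adjustment.

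In the larger clusters, let-7a-2 had a log2 change of −0.63 at 30 against 2 months (SE 0.25, edgeR adjusted p = 0.0990) and let-7c-1 one of −0.24 (SE 0.24, edgeR adjusted p = 0.582), which is 0.03 with library totals. In the linear trend let-7a-2 fell by 0.23 log2 units per 10 months (SE 0.07, edgeR adjusted p = 0.0305), while let-7c-1 (slope −0.09, adjusted p = 0.462) and let-7e (slope −0.07, adjusted p = 0.698) did not pass. Their counts were within 0.971 to 1.06 and 0.983 to 1.07 times those of the copies let-7a-1 and let-7c-2, taken as copy over cluster member, so they cannot be assigned to these loci. mir-100 over mir-125b-1 differed by −0.46 (exact p = 0.0556, adjusted p = 0.0926) and mir-99a over mir-125b-2 by 0.07 (exact p = 0.730, adjusted p = 0.811). mir-100 over let-7a-2 differed by 0.08 (exact p = 0.825) and mir-99a over let-7c-1 by 0.19 (exact p = 0.714). Over the whole let-7 family, including mir-98, 0 of 12 hairpins were higher and 4 lower at 30 against 2 months by edgeR adjusted p. Of all hairpins tested 9.17% were higher and 5.03% lower in that comparison. In the trend 6 of the 12 were lower, where 19.8% of all hairpins passed, with 10.7% rising. The copies of let-7f are in both counts, and those of let-7a are among the 6. Copies may share reads, so these counts may hold the same change more than once.

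mir-351, a hairpin on chromosome X with the miR-125 seed, stood at the level of mir-125a. It had 63.1 ± 10.1 CPM at 30 months, against 40.0 ± 5.14 CPM at 2 months (mean ± SD, n = 5 per age), with 5 of 5 old libraries above all young ones and a log2 change of 0.66 (SE 0.20, edgeR adjusted p = 0.0322). That call ended in 6 of 24 alternatives, 4 of them fits without 1 library, with adjusted p up to 0.0772. The hairpins mir-6367 and mir-6394 of the same seed had no counts in any library. mir-10a, of the Hoxb cluster and with the related seed ACCCUGU, was far more abundant at 2695 ± 353 CPM at 30 months, against 1162 ± 179 CPM at 2 months, a log2 change of 1.21 (SE 0.18, edgeR adjusted p = 4.90e-05).

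Among libraries of the same age the 6 hairpins varied together. On log2 CPM with the age mean subtracted, the 15 pairs of members had Pearson's r from 0.630 to 0.917 over 25 libraries, and all 15 passed. Passing was common: 427 or 21.3% of the 2007 pairs of a member and a tested hairpin passed by r, 213 of them positive, and the share was 20.5% for mir-99b. The median r of mir-99b with all other tested hairpins was 0.01. mir-99b and mir-99a, which lie on different chromosomes, had r = 0.917 and Spearman's rho = 0.904 (permutation p = 1e-05 for each, the smallest that 100000 permutations within age can give). Adjusted over the 2007 pairs the p was 0.00287 for r and 0.00251 for rho. Without the 2 libraries farthest from the median of mir-99a, r was 0.871. mir-99b and mir-125a had r = 0.906 and rho = 0.847 (permutation p = 5e-05 and 3e-05, adjusted p = 0.00386 and 0.00401), and r = 0.825 without the 2 farthest libraries. The lowest pair, mir-99b and mir-100, had r = 0.630 and rho = 0.598 (permutation p = 0.00109 and 0.00288, adjusted p = 0.0124 and 0.0275), and r = 0.530 without 15 months replicate 5 and 30 months replicate 3. With let-7e of its own cluster mir-99b had r = 0.197 (rho = 0.238, permutation adjusted p = 0.530 and 0.429). With let-7a-2 of another cluster it had r = −0.60 (rho = −0.54, permutation adjusted p = 0.0313 and 0.0484), and r = −0.43 without the 2 farthest libraries. The points share a library, its scaling and its depth. mir-125b-1 and mir-125b-2, at r = 0.910, may share reads.

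**Figure D4:**
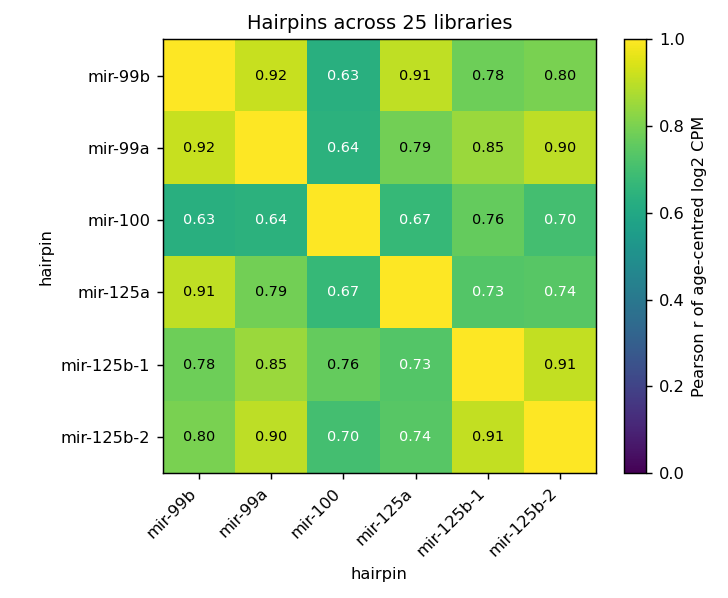
Pearson r (colour and printed value) of log2 CPM, with the mean of each age subtracted, between the 6 hairpins over 25 libraries. The values run from 0.63 for mir-99b with mir-100 to 0.92 for mir-99b with mir-99a.

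The hairpins outside the families whose pattern was most like theirs were named by the highest r for each member with a mean of at least 10 CPM. For mir-99b they were mir-151 (r = 0.901, rho = 0.814, permutation adjusted p = 0.00780 and 0.0105), mir-339 (r = 0.866, rho = 0.802, adjusted p = 0.00453 and 0.00554) and mir-23a (r = 0.799, rho = 0.735, adjusted p = 0.00349 and 0.00520). For mir-125a they were the same 3, with r = 0.839, 0.803 and 0.823 for mir-151, mir-339 and mir-23a. For mir-99a they were mir-151 at r = 0.811, mir-23a at 0.803 and mir-128-1 at 0.777. Without the 2 farthest libraries these values for mir-99b were 0.816, 0.784 and 0.704, and the others ran from 0.653 for mir-125a with mir-339 to 0.737 for mir-99a with mir-128-1.

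Markers of blood cell types moved with age as well. The counts below are by edgeR adjusted p at 30 against 2 months, where 9.17% of all hairpins were higher and 5.03% lower. The neutrophil and monocyte list, mir-223, mir-23a, mir-27a and mir-24-2, was higher for 4 of 4 hairpins. Its summed level ran from 286 to 435 CPM at 30 months and from 179 to 216 CPM at 2 months. 30 months replicate 3, the lowest library of its age in all members, was also the lowest in this list at 286 CPM, and 15 months replicate 5 was the highest of its age in both. 24 months replicate 4, also the lowest of its age in all members, had rank 4 of 5 in this list, at 342 CPM. The platelet and endothelial list was lower for 3 of 5 hairpins, mir-126a, mir-126b and mir-199a-1, with sums of 4.604 to 12.9 CPM at 30 months and 19.2 to 27.7 CPM at 2 months. The red cell list was lower for mir-144 alone of 4, with 501700 to 778400 CPM at 30 months and 717000 to 858400 CPM at 2 months. Its sum was 460200 CPM or more in every library of the series. Of its members, mir-486a and mir-486b had log2 changes of −0.2965 and −0.2966 at 30 against 2 months (SE 0.178 for each). They may share reads, which the sum would then count more than once. In this list 30 months replicate 3 was the lowest of its age and 15 months replicate 5 the highest, but 24 months replicate 4 had rank 3 of 5. In the stroma and smooth muscle list 30 months replicate 3 was the lowest of its age, at 98.6 CPM, and 24 months replicate 4 the highest, at 357 CPM. Most of both sums was mir-10b, a member of that list, with 72.4 CPM and 317 CPM in these libraries.

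None of 4 lymphocyte hairpins passed (179 to 446 CPM at 30 months, 333.7 to 528 CPM at 2 months), nor did any of the 3 tested hairpins of stroma and smooth muscle (98.6 to 158 CPM at 30 months, 127 to 209 CPM at 2 months) or the 2 tested of skeletal and heart muscle (medians of 33.6 CPM at 30 months and 59.1 CPM at 2 months), where mir-206 was at 0 in every library. Of the epithelial list mir-205 of 4 tested hairpins was lower (12.6 to 65.2 CPM at 30 months, 61.5 to 119 CPM at 2 months), and mir-122 of liver, at 0 to 1.13 CPM over all libraries, was not tested. Within ages mir-99b had r = 0.530 with mir-223 (rho = 0.438, permutation adjusted p = 0.0802 and 0.134) and r = −0.10 with mir-126a (rho = −0.11, permutation adjusted p = 0.787 and 0.734). mir-125a had r = 0.570 with mir-223 (rho = 0.486, permutation adjusted p = 0.0335 and 0.0775), which was 0.438 without the 2 farthest libraries. With the red cell hairpin mir-451a, mir-99b had r = 0.650 (rho = 0.588, permutation adjusted p = 0.0169 and 0.0300) and mir-125a r = 0.524 (rho = 0.462, permutation adjusted p = 0.0648 and 0.102), and without the 2 farthest libraries r was 0.584 and 0.259. mir-145a, a smooth muscle hairpin at 1.73 CPM on average, had r = 0.572 with mir-99b (rho = 0.505, permutation adjusted p = 0.0316 and 0.0616) and r = 0.452 with mir-125a (rho = 0.333, permutation adjusted p = 0.116 and 0.276). Its r was 0.633 with mir-99a, 0.746 with mir-100, 0.822 with mir-125b-1 and 0.728 with mir-125b-2 (permutation adjusted p = 0.0177, 0.00921, 0.00317 and 0.00945), with rho = 0.496, 0.538, 0.731 and 0.600 (adjusted p = 0.0770, 0.0761, 0.00725 and 0.0292). These r were 0.563, 0.585, 0.741 and 0.590 in that order without the 2 farthest libraries. The more abundant mir-143 of the same list had r = 0.381 with mir-99b and 0.470 with mir-125a, and the lymphocyte hairpin mir-150 had 0.233 and 0.177 (permutation adjusted p = 0.207, 0.0869, 0.502 and 0.597), with rho = 0.327, 0.438, 0.0969 and 0.115 for the 4 pairs. The part of the cell types in the values of mir-99b and mir-125a was not tested, and in bulk blood fewer cells of a type and less RNA per cell cannot be told apart.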

How the data were processed

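The authors deposited 1 table of raw counts per microRNA hairpin for the 25 libraries, from libraries of the TruSeq kit for small RNA, per the labels' protocols. Per the submitters' processing notes, SAMtools 1.3.1-9, Trimmomatic 0.36 and bcl2fastq 1.8.4 were used. The sources used here do not give the aligner, counter, genome build, use of strand or rule for shared reads. No pair of same-age libraries matched within sampling noise (smallest chi-square per degree of freedom 124.9 over 50 pairs). Replicate numbers follow the order of deposition.

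Differences were tested with edgeR 4.0.16 (quasi-likelihood F test, TMM, default filter by age, robust) in R 4.3.3 in 1 fit of all 25 libraries, with Benjamini-Hochberg adjustment over the hairpins kept. An SE is the log2 change divided by the root of F. The fit was tested on simulated data. Ratios and correlations used log2 of CPM + 0.5. Ratios were tested with exact permutation tests of SciPy 1.17.1, and correlations with 100000 permutations within age in NumPy 2.4.6. Alternatives included limma 3.58.1 and DESeq2 1.42.0. The members, the cluster neighbours, the related hairpins mir-351, mir-10a and mir-10b, the let-7 list and the marker lists were chosen with earlier results of these data known. Named hairpins are these and up to 3 most alike per member of at least 10 CPM. mir-10b, a further relative on chromosome 2, did not pass at 30 against 2 months (log2 change −0.30, adjusted p = 0.640). The floor of 3 counts covers counting error only, and the kit adds no molecular identifiers. The SDs and SEs include the spread between libraries.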

Additional observations from a re-analysis of the deposited data

Results flagged for a closer look

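Of 30 groups of 5 libraries (6 hairpins at 5 ages), 6 held a library whose gap to the nearest other exceeded 0.71 of the group's range. Chance gives about 1 in 20 groups. In 15 months replicate 5, mir-99a had 29.4 CPM (next 14.8), mir-99b 82.9 CPM (next 42.1) and mir-100 3.15 CPM (next 1.19). In 30 months replicate 3, mir-99b had 24.5 CPM (next 68.4) and mir-100 0.284 CPM (next 0.695), from 2 counts. In 9 months replicate 5, mir-125b-2 had 14.2 CPM (next 10.1). The hairpins share these libraries, so these values are not independent of each other.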

How the results depend on the processing

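No paired analysis was possible because replicate numbers follow the order of deposition and pair no animals across ages. Over 24 alternatives at 30 against 2 months the log2 change of mir-99b ran from 0.73 to 1.20 and its call ended in 3, and that of mir-125a ran from 0.59 to 0.99 and its call ended in 13. The 2 members called at 30 against 2 months were 1 with upper quartile factors, limma-voom, summed mir-125b copies or the 10 compared libraries alone, 0 without a filter or with lane as a term, and 0 to 2 without 1 library. The 1 called at 24 against 2 months became 4 for library totals, 2 by DESeq2 or after a filter of 10 CPM, 3 without the 2 smallest libraries (added after seeing the data), and 0 to 2 without 1 library. The 0 called for any age were 2 with library totals, 1 with DESeq2, 2 without the 2 smallest libraries, and 0 to 2 without 1 library. The 2 called for the trend were 0 without the 2-month group, a fit of fewer libraries, and 2 without any 1 library. Of the 3 ratios called, mir-99b over mir-99a was added after seeing the data, and its p-values are no test of it. The 3 were 0 with a pseudocount of 5 CPM and 0 to 5 without 1 library. Apart from these, the cause was not tested.

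Values of uncalled hairpins changed sign as follows. At 30 against 2 months, with library totals, mir-125b-1 was 0.0798, mir-125b-2 0.14 and let-7c-1 0.0267. mir-99a was −0.0333 with limma-voom, −0.21 with lane as a term, −0.0046 with summed copies and −0.0505 with thinned libraries. mir-125b-2 was 0.20 with thinned libraries and 0.0521 without the 2 smallest. For the trend, mir-125b-1 was 0.0813 with library totals, 0.0033 with upper quartile factors and 0.0383 without the 2 smallest libraries. mir-125b-2 was −0.0037 with RLE factors, −0.0032 without a filter, −0.0050 with DESeq2, −0.0069 with limma-voom, −0.0194 with lane, −0.0124 with summed copies and −0.12 without the 2-month group, where mir-99a was −0.0094. mir-100 over let-7a-2 was −0.12 with a pseudocount of 0.1 CPM. Without 1 library, the 30 against 2 months change ran from −0.0752 to 0.26 for mir-99a, −0.21 to 0.13 for mir-125b-1 and −0.25 to 0.12 for mir-125b-2, the trend from −0.0485 to 0.0334 for mir-125b-1 and −0.0187 to 0.0612 for mir-125b-2, mir-100 over let-7a-2 from −0.15 to 0.42 and mir-99a over mir-125b-2 from −0.0526 to 0.20. Over all hairpins the counts called ranged from 15 to 58 at 30 against 2 months (48), 23 to 72 at 24 against 2 months (41), 14 to 44 for any age (27) and 9 to 89 for the trend (67). At 15 against 2 months they were 2 to 5 (5), at 9 against 2 months 3 to 8 (7) and at 24 against 15 months 0 to 16 (7). The counts per library were 2 to 47 for mir-100 and 7 to 73 for let-7e.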
